A study of Mus musculus with 2 samples.

Results

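The acute phase response genes described here are *Saa1*, *Saa2*, *Saa4*, *Orm1*, *Hp*, *Crp*, *Lcn2*, *Itih4*, *Apcs* and *Stat3*, and their accessible regions were taken from ATAC-seq of mouse liver. A region belonged to one of these genes when the gene's symbol was given as that of the closest transcription start site (TSS), and each distinct region was used once. By this rule 31 of the 69549 distinct regions belonged to 9 of the 10 genes, and *Saa2* had none. A region whose centre lay within 1 kb of the TSS was called a promoter region. There were 12 promoter regions in 8 of the genes, among 14387 in the series, and 19 other regions, among 55162.

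ATAC-seq measures open chromatin by the number of fragments that the Tn5 transposase releases from it. Liver nuclei came from *Mettl3* flox/flox mice, which carry loxP-flanked *Mettl3* alleles without Cre, and from *Mettl3*-HKO mice, which carry the same alleles together with Alb-Cre+/-. Alb-Cre is driven by the albumin promoter and deletes in hepatocytes, so the other liver cells of *Mettl3*-HKO mice keep *Mettl3*, which encodes the catalytic subunit of the RNA m6A methyltransferase. All mice were C57BL/6, were 8 weeks old and ate normal chow, with no inflammatory stimulus named in the labels. Livers of 4 mice were pooled into 1 library per genotype, so differences between the libraries carry no error between mice. The intervals and p-values below cover counting error only.

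Acute phase proteins are plasma proteins that hepatocytes make in larger amounts after infection or injury. Interleukin 6 reaches the hepatocyte through gp130 and activates the transcription factor STAT3, while interleukin 1 and tumour necrosis factor act through NF-kappaB, and C/EBP factors bind many of the same promoters. In the mouse the serum amyloid A proteins and serum amyloid P component (*Apcs*) are the major inducible acute phase proteins, whereas *Crp* responds only weakly.

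Sequences of the 250 bases before the RefSeq start of a gene (GRCm38.p6) were found for 8 of the 10 genes, all except *Orm1* and *Hp*, and were searched on both strands for 4 short motifs. The windows of *Saa2*, *Crp*, *Apcs*, *Itih4* and *Lcn2* are shown 5′ to 3′ on the strand of the gene. *Saa2* is shown because its promoter was not among the accessible regions, and *Crp* and *Apcs* because the ratios of these related genes differed. *Itih4* and *Lcn2* are shown because they hold the motif of an acute phase factor and had lower counts in *Mettl3*-HKO. Of all promoter regions only 16.1% were higher in *Mettl3*-HKO, so this choice ties no motif to the lower counts. Capitals mark the matches: TTGCNNAA (C/EBP) in *Saa2* and *Lcn2*, TTCNNNGAA (STAT3) in *Apcs* and *Itih4*, and TATAAA, a core promoter box, in *Crp*. The windows are chr7:46751583-46751832 (plus strand) for *Saa2*, chr1:172697806-172698055 (plus strand) for *Crp*, chr1:172895055-172895304 (minus strand) for *Apcs*, chr14:30886226-30886475 (plus strand) for *Itih4* and chr2:32387740-32387989 (minus strand) for *Lcn2*.
Saa2: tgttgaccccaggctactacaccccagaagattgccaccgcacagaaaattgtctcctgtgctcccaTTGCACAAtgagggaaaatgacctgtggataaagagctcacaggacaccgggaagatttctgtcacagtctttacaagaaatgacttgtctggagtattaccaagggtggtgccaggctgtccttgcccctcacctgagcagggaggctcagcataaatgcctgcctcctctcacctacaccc
Crp: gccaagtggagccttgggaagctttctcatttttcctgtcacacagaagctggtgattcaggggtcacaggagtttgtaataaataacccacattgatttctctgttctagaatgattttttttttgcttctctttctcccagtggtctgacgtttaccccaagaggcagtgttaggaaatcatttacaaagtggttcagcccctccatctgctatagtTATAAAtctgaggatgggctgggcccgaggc
Apcs: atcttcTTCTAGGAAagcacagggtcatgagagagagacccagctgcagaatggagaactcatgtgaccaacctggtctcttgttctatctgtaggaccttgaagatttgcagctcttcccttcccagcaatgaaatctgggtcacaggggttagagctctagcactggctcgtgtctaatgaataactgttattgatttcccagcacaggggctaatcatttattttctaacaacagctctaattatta
Itih4: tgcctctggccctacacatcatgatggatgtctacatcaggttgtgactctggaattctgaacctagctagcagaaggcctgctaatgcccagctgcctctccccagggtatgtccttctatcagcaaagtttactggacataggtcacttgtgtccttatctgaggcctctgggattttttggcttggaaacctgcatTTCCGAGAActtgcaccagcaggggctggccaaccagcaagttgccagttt
Lcn2: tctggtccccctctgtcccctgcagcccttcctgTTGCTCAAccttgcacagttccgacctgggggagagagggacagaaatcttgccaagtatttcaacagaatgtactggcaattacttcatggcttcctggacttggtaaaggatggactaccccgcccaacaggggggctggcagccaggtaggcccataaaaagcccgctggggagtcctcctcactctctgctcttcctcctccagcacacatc

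The C/EBP motif was present in 4 of the 8 windows, those of *Saa1*, *Saa2*, *Saa4* and *Lcn2*, against 9.56% of 32851 promoter windows of the same length. The STAT3 motif was present in 2 of the 8, 51 to 43 bases before the start of *Itih4* and 244 to 236 bases before that of *Apcs*, against 7.02% of all windows. The NF-kappaB motif GGNNNTTCC was present in 1 of the 8, at 2 places in *Stat3*, against 15.7%, and TATAAA in 1 of the 8, *Crp*, 31 to 26 bases before the start, against 12.4%. No matches overlapped each other, and a match is only a run of letters that was not tested for binding. The windows of *Saa1* and *Stat3* reach 201 and 54 bases into longer RefSeq models of these genes and are not shown. The windows of *Crp*, *Apcs* and *Lcn2* lay wholly inside an accessible region and 243 of the 250 bases of that of *Itih4* did, while no region overlapped the windows of *Saa1* and *Saa2*.

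Across all regions the *Mettl3*-HKO library was lower on the scale used, which sets the counts, with 1 read added, against the library totals (RPM) of 52826210 (*Mettl3* flox/flox) and 58038309 (*Mettl3*-HKO). The regions held 31.7% of the first total and 22.3% of the second. Log2 ratios are given as *Mettl3*-HKO against *Mettl3* flox/flox, and their median was −0.38 over all regions, −0.56 over promoter regions and −0.27 over other regions, and each member is given relative to these medians. At the *Mettl3* promoter itself the count was 566 in *Mettl3* flox/flox and 392 in *Mettl3*-HKO, a log2 ratio of −0.66, which is no check of the deletion since that region lies at the TSS. Of the hepatocyte markers (*Apob*, *Cps1* and others), 0 of 8 promoter regions lay above 0 and their summed count was 6275 in *Mettl3* flox/flox and 3850 in *Mettl3*-HKO. Of the endothelial markers 7 of 7 promoter regions, in 7 of the 8 genes, were above 0, with sums of 153 and 400. Of the macrophage markers 3 of 3, in 2 of the 8 genes (*C1qa* and *Cd14*), were above 0, with sums of 84 and 185. Over all promoter regions 16.1% were above 0. A peak was called in *Mettl3*-HKO only at 5 of these endothelial regions and at all 3 macrophage regions, as at 1208 promoter regions in all, of which 90.6% were above 0, and peak calls and ratios come from the same reads. The other 2 endothelial regions, *Eng* and *Clec4g*, had 23 and 28 counts and 48 and 79 counts. Of the 8 neutrophil markers 0 had a promoter region, and 6 of the 8 genes, *S100a8* and *S100a9* included, had no region at all. A smaller share of hepatocyte nuclei and less open chromatin per hepatocyte nucleus cannot be told apart in these libraries. With 1 library per genotype, neither can be told apart from a difference between the library preparations, such as in the share of reads on regions. The part of cell composition or of library preparation in the results below was not tested.

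The promoters of the acute phase genes were spread around the median of all promoters. Of the 12 promoter regions 9 had a log2 ratio below 0 and 3 above, the median was −0.53, and 6 lay above and 6 below the median of all promoter regions. The ratios ran from −1.14 at *Hp* to 0.40 at *Apcs*, and the summed count was 4674 in *Mettl3* flox/flox and 3709 in *Mettl3*-HKO. Only 1 of the 12, at *Hp*, was at least 2-fold lower in *Mettl3*-HKO, against 16.3% of all promoter regions, and 0 of the 12 were at least 2-fold higher, against 4.07%. By the two-sided exact conditional binomial test, adjusted over all 69549 regions (Benjamini-Hochberg), 8 of the 12 were lower (71.5% of all promoter regions) and 1 was higher (7.51%). After subtraction of the median of all regions, 0 of the 12 were at least 2-fold lower (5% of all promoter regions) and 0 were at least 2-fold higher (6.9%). These shares do not set the acute phase promoters apart from other promoters in either direction.

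**Figure D1:**
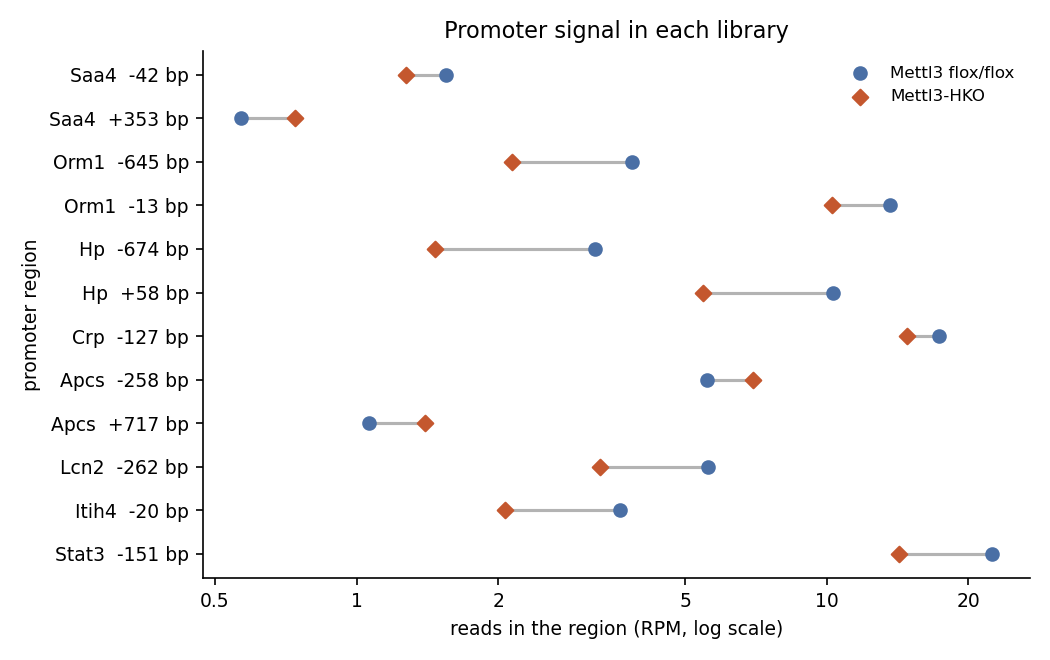
Signal of the 12 acute phase promoter regions in RPM (log axis) in the *Mettl3* flox/flox library (circles) and the *Mettl3*-HKO library (diamonds), 1 pooled library each, with the centre of each region given relative to the TSS. *Mettl3*-HKO lies to the left at 9 regions and to the right at both *Apcs* regions and the downstream *Saa4* region.

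Per base of region, the strongest promoters in *Mettl3* flox/flox were those of *Stat3* (66.1-fold over the genome average) and *Orm1* (65.6-fold), followed by *Hp* (46.7-fold) and *Crp* (45.8-fold). Those of *Itih4* (20.7-fold), *Lcn2* (18.1-fold), *Apcs* (15.3-fold) and *Saa4* (13.8-fold) were weaker. In *Mettl3*-HKO the order was *Orm1* (49.5-fold), *Stat3* (41.9-fold), *Crp* (39.2-fold), *Hp* (24.7-fold), *Apcs* (19.1-fold), *Itih4* (11.8-fold), *Saa4* (11.3-fold) and *Lcn2* (10.7-fold). *Apcs* thus moved from the seventh place to the fifth, and *Crp* passed *Hp*. Without replicate libraries, no spread can be set against the gaps between neighbours in this order.

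Serum amyloid A genes encode apolipoproteins of high-density lipoprotein, of which *Saa1* and *Saa2* are induced and *Saa4* is made constitutively. *Saa1* had a single region, chr7:46745797-46746809 (GRCm38), intergenic and centred 3360 bp upstream of the TSS. Its count was 649 in *Mettl3* flox/flox (12.3 RPM) and 387 in *Mettl3*-HKO (6.69 RPM), a log2 ratio of −0.88 (95% interval −1.07 to −0.70, adjusted exact p = 5.03e-21). The ratio was lower than that of most other regions, at percentile 23.4, and the median of the 1000 non-promoter regions nearest to it in signal was −0.67. *Saa1* and *Saa2* are transcribed away from each other with 8651 bp between their RefSeq models, and this region lies in the interval, 5530 bp from the *Saa2* start.

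No region overlapped the RefSeq model of *Saa1* or *Saa2*. In the windows before their starts, 238 of 251 aligned columns were identical (94.8%), and both hold the C/EBP match TTGCACAA, 182 to 175 bases before the start of *Saa1* and 183 to 176 bases before that of *Saa2*. Other pairs of member windows were 45.5% to 53.5% identical. The authors kept reads above a mapping quality, which near-identical copies can lower, and the part of this in the missing regions was not tested. RefSeq also lists each of these names as a synonym of the other gene.

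*Saa4* had a region across its TSS (chr7:46732493-46732799) with 81 counts in *Mettl3* flox/flox and 73 in *Mettl3*-HKO, a log2 ratio of −0.28 (95% interval −0.76 to 0.19, adjusted exact p = 0.304). A region in its intron 1, centred 353 bp downstream, had 29 and 42 counts, a log2 ratio of 0.38 (−0.32 to 1.13, adjusted exact p = 0.36), and a peak was called there in *Mettl3*-HKO only. On the scale of library totals neither differed between the libraries beyond counting error. Relative to the median of all regions the intron 1 region was at 0.76 (95% interval 0.06 to 1.51). It entered the set through the library where it is high, so this interval does not support a difference. Of all promoter regions with a peak in *Mettl3*-HKO only, 90.6% were above 0 on library totals. The 1000 promoter regions nearest in signal to the intron 1 region had a median of −0.0055 on that scale. Within the 42.3 kb from *Saa3* to *Saa2* there were 6 regions in all. Of these the *Saa1* upstream region had the most counts, and the *Saa3* region 4107 bp upstream of its TSS had 399 and 290 counts (log2 ratio −0.59).

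*Orm1* encodes orosomucoid (alpha-1-acid glycoprotein) and *Hp* haptoglobin, which binds free haemoglobin. The *Orm1* region over the TSS (chr4:63344265-63344830) had 717 counts in *Mettl3* flox/flox and 594 in *Mettl3*-HKO (13.6 and 10.3 RPM), a log2 ratio of −0.41 (95% interval −0.57 to −0.25, adjusted exact p = 1.3e-06). A neighbouring region 645 bp upstream had 202 and 123 counts, a log2 ratio of −0.85 (−1.19 to −0.52), and a peak was called there in *Mettl3* flox/flox only. The ratio of the upstream region differed from that of the TSS region by −0.44 (95% interval −0.82 to −0.07), whatever the scaling of the libraries. The upstream region entered the set through the library where it is high, so this interval does not support a difference along the gene.

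All 6 *Orm1* regions had a log2 ratio below 0, from −0.85 to −0.11, yet 4 of the 6 lay above the median of all regions. The region 2293 bp downstream, in the last intron, had the most counts of those outside the promoter, 374 in *Mettl3* flox/flox and 344 in *Mettl3*-HKO, a log2 ratio of −0.26 (−0.47 to −0.04, adjusted exact p = 0.0299). The region 1943 bp upstream had 214 and 181 counts (log2 ratio −0.38), the lowest of the non-promoter regions of *Orm1*. The highest was the most distant, 36963 bp upstream in intron 36 of *Col27a1*, with 47 and 48 counts (log2 ratio −0.11, adjusted exact p = 0.839).

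*Hp* had the lowest promoter ratio of the set. Its region over the TSS and exon 1 (chr8:109578813-109579415) had 544 counts in *Mettl3* flox/flox and 315 in *Mettl3*-HKO (10.3 and 5.44 RPM), a log2 ratio of −0.92 (95% interval −1.13 to −0.72, adjusted exact p = 3.62e-19). The region 674 bp upstream (chr8:109579692-109580001) had 169 and 84 counts (3.22 and 1.46 RPM), a log2 ratio of −1.14 (−1.54 to −0.76, adjusted exact p = 5.51e-09), and a peak was called there in *Mettl3* flox/flox only. These ratios stood at percentiles 20.5 and 10.6 of all promoter regions, and the medians of the 1000 promoter regions nearest in signal were −0.65 and −0.47.

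Farther upstream the *Hp* regions had higher ratios than the TSS region. At 5607 bp upstream, the *Hp* region with the most counts outside the promoter, there were 519 counts in *Mettl3* flox/flox and 444 in *Mettl3*-HKO, a log2 ratio of −0.36 (−0.55 to −0.18, adjusted exact p = 0.000284) that turned to 0.02 relative to the median of all regions and to 0.29 (0.10 to 0.47) relative to that of the strongest 10% of promoter regions. At 6678 bp upstream there were 181 and 228 counts, a log2 ratio of 0.20 (−0.09 to 0.49, adjusted exact p = 0.232). The upstream ratios exceeded that of the TSS region by 0.56 (95% interval 0.29 to 0.84) and 1.12 (0.77 to 1.48). At 5628 bp downstream, in the 3′ UTR of the neighbouring gene *Txnl4b*, the counts were 111 and 123 (log2 ratio 0.01). The ratio was thus uneven along *Hp*, with the promoter lowest.

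**Figure D2:**
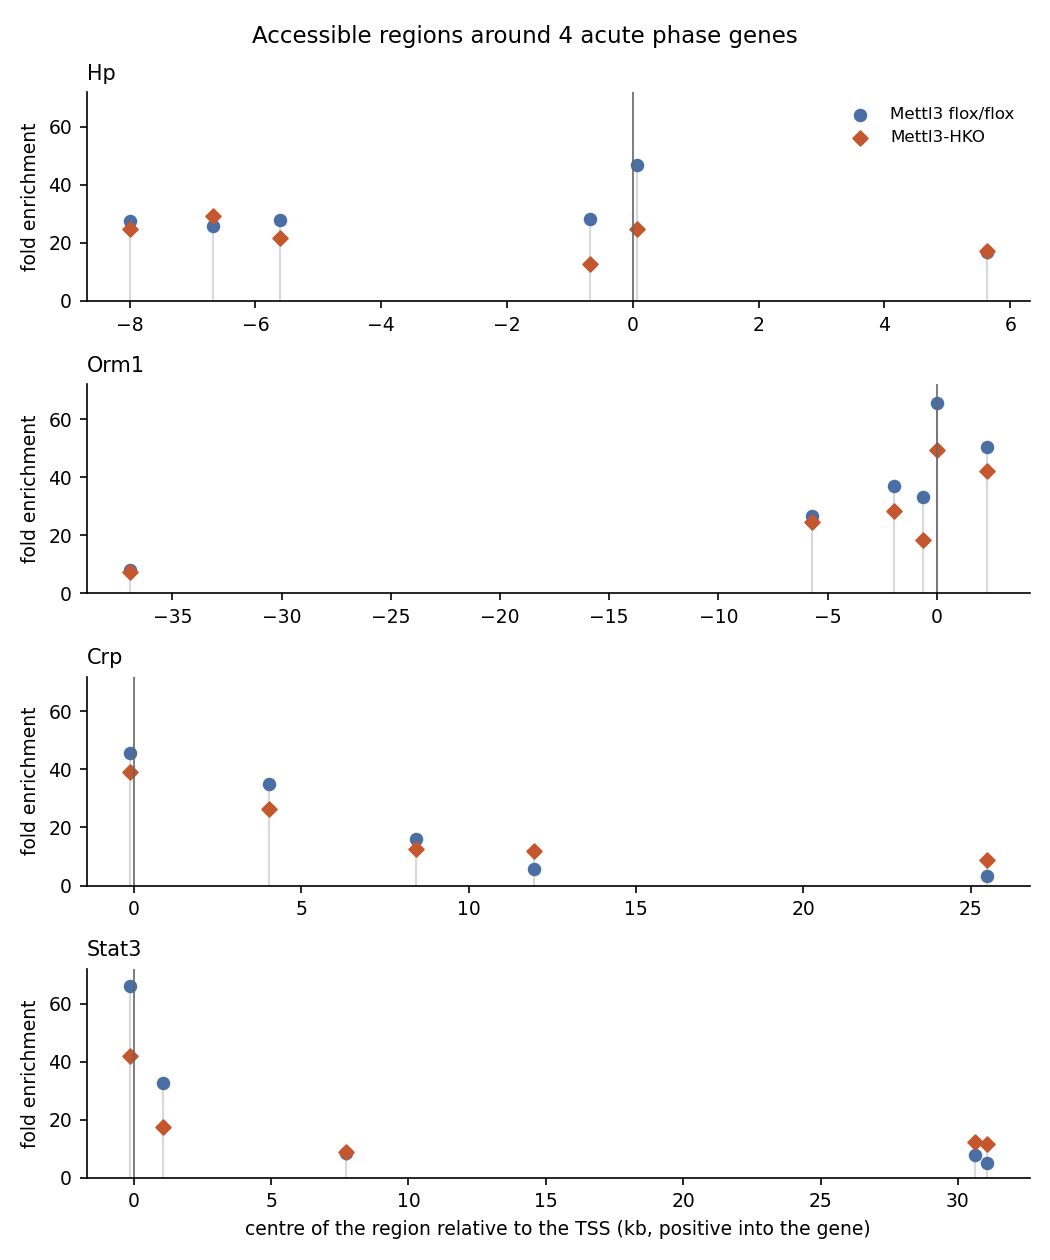
Fold enrichment of reads per base over the genome average (vertical axis) for every region of *Hp*, *Orm1*, *Crp* and *Stat3* against the distance of its centre from the TSS in kb (horizontal axis, positive into the gene, with a different span for each gene), in *Mettl3* flox/flox (circles) and *Mettl3*-HKO (diamonds). At *Hp* the gap is widest at the TSS (46.7 against 24.7). At *Crp* and *Stat3*, *Mettl3*-HKO is higher at weak distal regions. Most of these have a peak in *Mettl3*-HKO only, a call made from the same reads.

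*Crp* and *Apcs* encode the short pentraxins C-reactive protein and serum amyloid P component and lie on chromosome 1 with 194 kb between their RefSeq models. The *Crp* promoter region (chr1:172697414-172698444) had 913 counts in *Mettl3* flox/flox and 858 in *Mettl3*-HKO (17.3 and 14.8 RPM), a log2 ratio of −0.23 (95% interval −0.36 to −0.09, adjusted exact p = 0.0022). Relative to the median of all regions it was higher, at 0.15 (0.02 to 0.29), so its direction turned with the scale, and it stood at percentile 76.1, where promoter regions of like signal had a median of −0.63. The *Apcs* promoter region (chr1:172894802-172895797) had 293 and 404 counts (5.57 and 6.98 RPM), a log2 ratio of 0.33 (0.11 to 0.55, adjusted exact p = 0.00608), at percentile 89.8, where promoter regions of like signal had a median of −0.60. The *Apcs* ratio exceeded that of *Crp* by 0.55 (95% interval 0.29 to 0.81).

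*Apcs* was the one gene of the set with every region higher in *Mettl3*-HKO. The region 8574 bp upstream (chr1:172903149-172904082) had 418 counts in *Mettl3* flox/flox and 575 in *Mettl3*-HKO, a log2 ratio of 0.32 (0.14 to 0.51, adjusted exact p = 0.00106), which differed from that of the promoter by −0.0034 (95% interval −0.29 to 0.29). The region in its last exon, 717 bp downstream, had 55 and 80 counts, a log2 ratio of 0.40 (−0.11 to 0.93, adjusted exact p = 0.166). Together the 3 regions held 766 and 1059 counts. Of all promoter regions 16.1% had a ratio above 0, and of all other regions 40.2%.

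The 4 *Crp* regions beyond the promoter had unlike ratios. Those 4027 bp and 8439 bp downstream of the TSS had peaks in *Mettl3* flox/flox only and lay at the median of all regions. The first had 142 and 118 counts and so a ratio of −0.40 on the log2 scale (95% interval −0.77 to −0.04, adjusted exact p = 0.0435), and the second 74 and 63 counts, a log2 ratio of −0.36 (−0.88 to 0.14, adjusted exact p = 0.204). Both turn sign with the scale. The region 11959 bp downstream had 43 counts in *Mettl3* flox/flox and 104 in *Mettl3*-HKO, a log2 ratio of 1.12 (0.61 to 1.69, adjusted exact p = 2.34e-05). The region 25477 bp downstream had 16 and 49 counts, a log2 ratio of 1.42 (0.64 to 2.39, adjusted exact p = 0.000524). A peak was called at both in *Mettl3*-HKO only, and 94.9% of all 13720 other regions with such a peak lay above 0. They entered the set through the library where they are high, so their p-values and intervals do not support a difference. The same holds for their differences from the *Crp* promoter, 1.36 (95% interval 0.82 to 1.93) and 1.70 (0.85 to 2.63). The authors' annotation places all 4 in the last intron of *Crp*, but the RefSeq model ends at position 172699966, and all 4 lie beyond it.

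*Lcn2* encodes lipocalin 2, which binds bacterial siderophores, and is also a neutrophil granule gene. Its promoter region (chr2:32387564-32388405), the only region it had, held 294 counts in *Mettl3* flox/flox and 190 in *Mettl3*-HKO (5.58 and 3.29 RPM), a log2 ratio of −0.76 (95% interval −1.04 to −0.50, adjusted exact p = 3.99e-08). *Itih4*, an inter-alpha-trypsin inhibitor heavy chain, had a region across its TSS (chr14:30886233-30886711) with 191 and 119 counts (3.63 and 2.07 RPM), a log2 ratio of −0.81 (−1.16 to −0.48, adjusted exact p = 3.45e-06). Its region in intron 2, centred 1952 bp downstream, had 186 and 123 counts, a log2 ratio of −0.73 (−1.07 to −0.40). The *Lcn2* and *Itih4* promoters stood at percentiles 31.8 and 27.8 of all promoter regions. Of the 8 neutrophil markers, 0 had a promoter region beside that of *Lcn2*.

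*Stat3*, the factor that carries the interleukin 6 signal to these promoters, had the promoter region with the most counts of the set in *Mettl3* flox/flox. In *Mettl3*-HKO that of *Crp* had more. The *Stat3* region (chr11:100939092-100940020) held 1186 counts in *Mettl3* flox/flox and 827 in *Mettl3*-HKO (22.5 and 14.3 RPM), a log2 ratio of −0.66 (95% interval −0.79 to −0.53, adjusted exact p = 6.59e-23), near the median of −0.62 for promoter regions of like signal. A region in intron 1, 1062 bp downstream, lay just outside the promoter window and had a peak in *Mettl3* flox/flox only. This region had 176 and 103 counts, a log2 ratio of −0.90 (−1.27 to −0.55). Its difference from the promoter was −0.25 (95% interval −0.64 to 0.13), which is within counting error.

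Deeper in *Stat3*, a region in intron 3 and its neighbour in exon 3 had peaks called in *Mettl3*-HKO only. In intron 3, 31054 bp downstream, there were 33 counts in *Mettl3* flox/flox and 83 in *Mettl3*-HKO, a log2 ratio of 1.17 (0.60 to 1.82, adjusted exact p = 9.71e-05). Its difference from the promoter was 1.85 (95% interval 1.24 to 2.49). The neighbouring region in exon 3 had 31 and 53 counts, a log2 ratio of 0.62 (−0.03 to 1.33, adjusted exact p = 0.0861). Both entered the set through the library where they are high, and 94.9% of all other regions with such a peak lay above 0. These values therefore do not support a turn in the order of the libraries. Another region in intron 1, 7711 bp downstream, had 69 and 78 counts (log2 ratio 0.04). Near the other end of the gene the authors' annotation places 3 regions inside *Stat3* that are closest to the start of *Stat5a*. Their log2 ratios were −0.18, −0.54 and −0.78. Those at −0.18 and −0.54 lie beyond the RefSeq model of *Stat3*, which ends at position 100886806.

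Outside the promoters the median of the 19 regions was −0.12, with 11 below 0 and 8 above. None of the 19 was at least 2-fold lower in *Mettl3*-HKO (0 of 19, against 18.8% of all other regions), and 3 were at least 2-fold higher (15.6% of all other regions), the 2 distal *Crp* regions and that in intron 3 of *Stat3*. By the binomial test 7 were lower (41% of all other regions) and 4 were higher (23.1%). After subtraction of the median of all regions, 0 of the 19 were at least 2-fold lower (8.65%) and 3 at least 2-fold higher (23.5%). The share of regions at least 2-fold higher was close to the background before this subtraction and below it afterwards.

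The 3 higher regions were weak, and each had a peak in *Mettl3*-HKO only. Among the 5 non-promoter member regions with a peak in *Mettl3*-HKO only the median log2 ratio was 1.12, and among all 13720 such regions it was 1.09. The peak calls come from the same reads as the ratios, so this is not a separate observation. The 12 non-promoter regions of at least 2 RPM had a median of −0.31, and all other regions of at least 2 RPM one of −0.58. The 7 weaker ones had a median of 0.62, and all weaker ones one of 0.02.

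**Figure D3:**
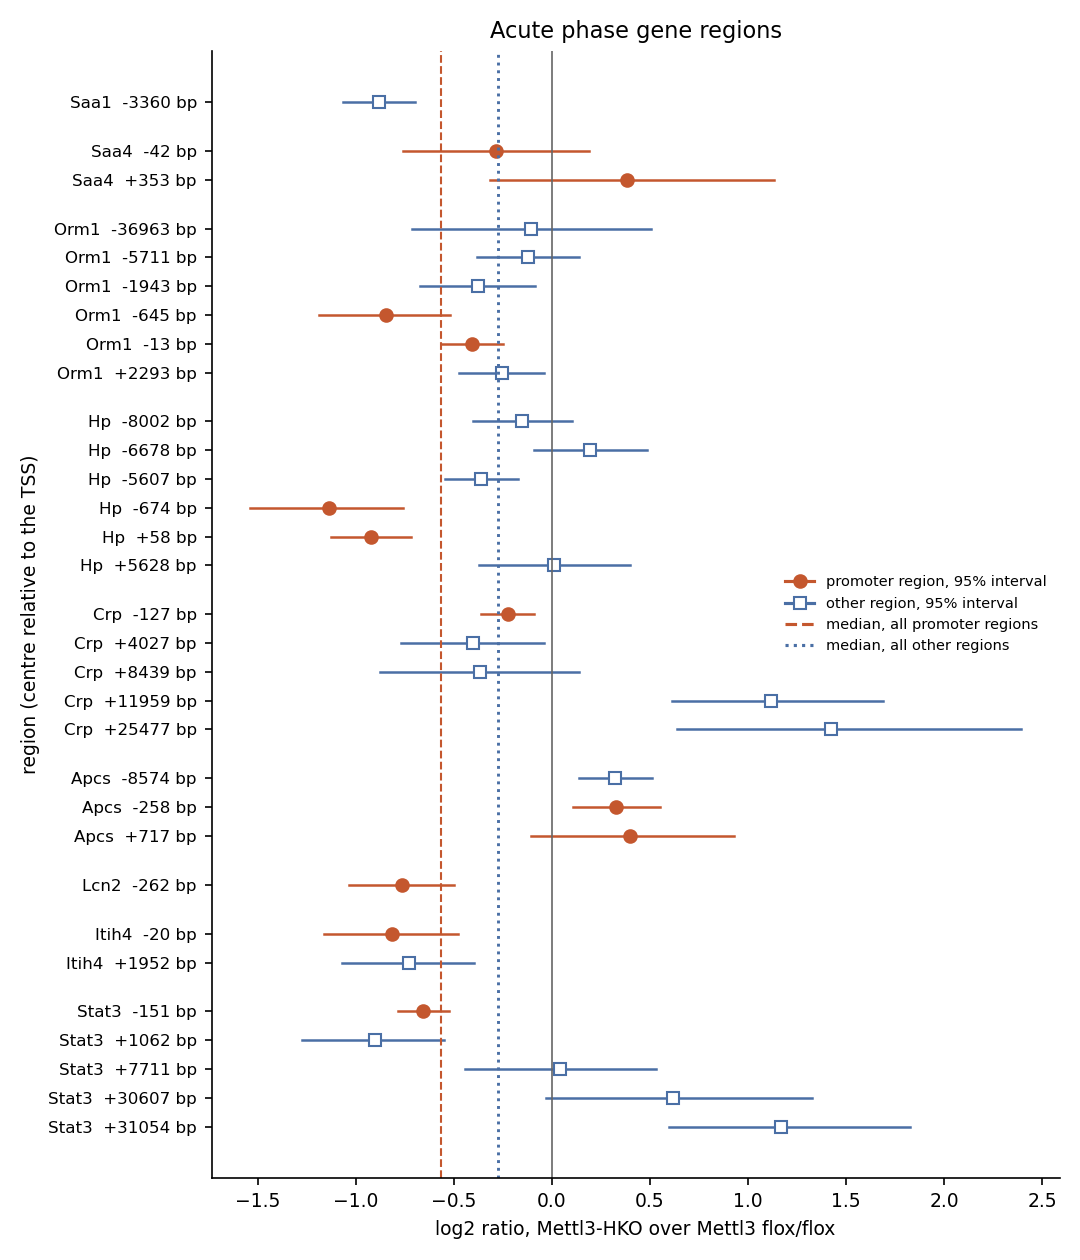
Log2 ratio (*Mettl3*-HKO against *Mettl3* flox/flox) for all 31 regions, grouped by gene and ordered by position, with 95% intervals from counting error (filled circles, promoter regions; open squares, other regions). The dashed line is the median of all promoter regions (−0.56), the dotted line that of all other regions (−0.27), and the 3 *Apcs* regions all lie above 0.

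The direction of small ratios depended on the scale. On the scale of library totals 11 of the 31 regions (35.5%) had a log2 ratio above 0, against 35.2% of all regions. After subtraction of the median of all regions 20 did (64.5%, against 50% of all regions by construction). When counts were set against the reads on regions 22 did (71.0%, against 57.0%), and when the median of the strongest 10% of promoter regions was subtracted 22 did (71.0%, against 64.6%). The *Apcs* regions were above 0 on each of these 4 scales. Both *Hp* promoter regions and the *Saa1* region were below 0 on each, with intervals that did not reach 0. Of these, the *Hp* region 674 bp upstream had a peak in *Mettl3* flox/flox only, the library where it is high. The intervals of 4 further promoter regions that were below 0 on each scale reached 0 on the last. Those of *Lcn2* (−0.52 to 0.01) and *Itih4* (−0.65 to 0.03) also did when counts were set against the reads on regions. On the last scale *Stat3* was at −0.0093 (95% interval −0.14 to 0.12), *Lcn2* at −0.12 (−0.39 to 0.15), *Itih4* at −0.17 (−0.51 to 0.17) and the upstream *Orm1* region at −0.20 (−0.54 to 0.13). The *Hp* region over the TSS was at −0.28 on that scale and the one 6678 bp upstream at 0.84. The *Crp* promoter was above 0 on the 3 scales other than library totals, at 0.15, 0.29 (95% interval 0.15 to 0.42) and 0.42 (0.28 to 0.56) in that order, and so was the *Saa4* region across the TSS, with intervals that held 0. The *Orm1* region over the TSS was at −0.03, 0.10 and 0.24 (0.08 to 0.40).

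**Figure D4:**
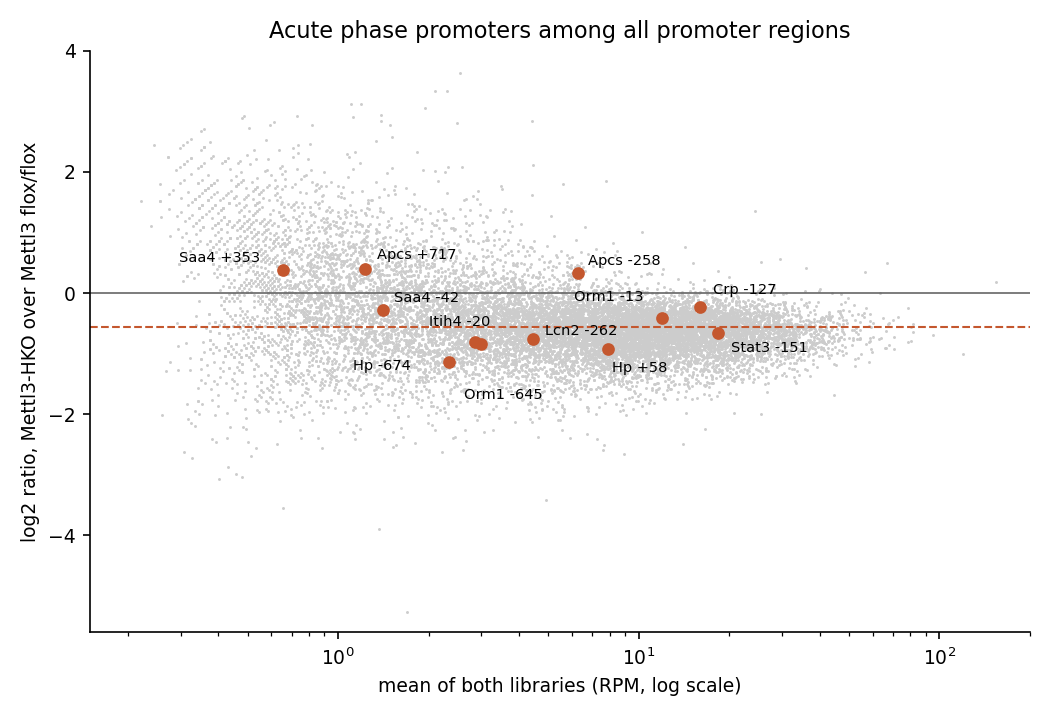
Log2 ratio (*Mettl3*-HKO against *Mettl3* flox/flox) against mean signal in RPM (log axis) for all 14387 promoter regions (grey) with the 12 acute phase promoter regions marked and labelled by gene and distance from the TSS in bp. The dashed line is the median of all promoter regions (−0.56). The *Apcs* region 258 bp upstream, at 0.33, is the only marked region with a mean signal above 2 RPM that lies above 0.

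Other positive acute phase genes, whose products also rise in inflammation, had a median log2 ratio of −0.83, beside −0.53 for the members and −0.56 for all promoter regions, over 23 promoter regions in 18 of 22 genes. At least 2-fold lower were 7 of the 23 (30.4%, against 16.3% of all promoter regions), and 0 were at least 2-fold higher (4.07%). After subtraction of the median of all regions, 1 of the 23 was at least 2-fold lower (5% of all promoter regions) and 1 at least 2-fold higher (6.9%). By the binomial test 20 were lower (71.5%) and 2 higher (7.51%). The lowest was *Mt2*, which encodes a metallothionein, with 1443 counts in *Mettl3* flox/flox and 335 in *Mettl3*-HKO (log2 ratio −2.24). The neighbouring *Mt1* had 1200 and 638 (−1.05). The metalloreductase gene *Steap4* had 942 and 399 counts (−1.37), the fibrinogen gamma chain gene *Fgg* had 1118 and 562 (−1.13), and *Itih3* had 486 and 250 (−1.09). *Orm3*, a paralogue of *Orm1*, had 367 and 162 counts at 1 promoter region (−1.31) and 138 and 70 at the other (−1.10).

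Among the stronger promoters of that list, *Lbp*, which encodes the lipopolysaccharide-binding protein, had 1359 and 757 counts (−0.98), and *Hpx*, which encodes the haem carrier hemopexin, had 988 and 892 (−0.28). Those higher in *Mettl3*-HKO were *Hamp*, which encodes the iron hormone hepcidin, with 311 and 610 counts (0.83), and *Cp*, which encodes the copper protein ceruloplasmin, with 268 and 393 (0.41). *Hamp* and *Cp* were singled out after their values were seen. *Ptx3*, the long pentraxin, had no region.

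Negative acute phase genes, whose products fall in inflammation, had a median of −0.56 over 9 promoter regions in 8 of 8 genes, the same as all promoter regions to this precision. The lowest was *Ttr* (transthyretin), with 161 and 83 counts (−1.08), the only one at least 2-fold lower (16.3% of all promoter regions), and after subtraction of the median of all regions 0 were (5%). By the binomial test 8 of the 9 were lower (71.5%) and 0 higher (7.51%). The strongest were *Fetub* (fetuin B), with 1293 and 721 counts (−0.98), and *Rbp4* (retinol-binding protein), with 966 and 558 (−0.93). *Alb* (albumin) had 480 and 533 counts (0.02, adjusted exact p = 0.919).

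Of the interleukin 6 family signalling genes 11 of 15 had promoter regions, 13 in all, with a median of −0.41. By the binomial test 6 were lower (71.5% of all promoter regions) and 1 higher (7.51%). None was at least 2-fold lower (0 of 13, against 16.3%) or higher (0 of 13, against 4.07%), and after subtraction of the median of all regions 1, at *Socs1*, was at least 2-fold higher (6.9%). The strongest by mean signal of both libraries were *Il6st*, which encodes gp130, with 1607 and 1194 counts (−0.56), and the kinase gene *Jak1*, with 728 and 641 (−0.32). *Socs3*, the STAT3 target that limits the signal, had 648 and 446 (−0.67). *Il6*, *Il6ra* and *Osm* had no region under their symbols.

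Of the interleukin 1, tumour necrosis factor and NF-kappaB genes 10 of 14 had a promoter region, with a median of −0.44. By the binomial test 8 were lower (71.5% of all promoter regions) and 1 higher (7.51%), and 2 were at least 2-fold lower (16.3%) and 1 at least 2-fold higher (4.07%). After subtraction of the median of all regions, 0 were at least 2-fold lower (5%) and 1 at least 2-fold higher (6.9%). The lower ones were the receptor gene *Il1r1*, with 502 and 244 counts (−1.17), and the receptor kinase gene *Irak4*, with 1119 and 551 (−1.16). The higher one was *Il1a*, with 16 and 55 counts (1.58) and a peak in *Mettl3*-HKO only. The strongest, *Nfkbia*, which encodes an inhibitor of NF-kappaB, had 2317 and 1885 counts (−0.43).

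Transcription factors that act at acute phase promoters had a median of −0.85 over 8 promoter regions in 7 of 7 genes, and 8 of 8 were lower by the binomial test (71.5% of all promoter regions). At least 2-fold lower was 1 of the 8 (16.3% of all promoter regions), *Foxa2*, with 1650 and 792 counts (−1.19), and after subtraction of the median of all regions 0 were (5%). The strongest were *Nr3c1*, which encodes the glucocorticoid receptor, with 3211 and 1779 counts (−0.99), and *Cebpb*, with 2226 and 1708 (−0.52). *Cebpb* had the highest ratio of this list.

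**Figure D5:**
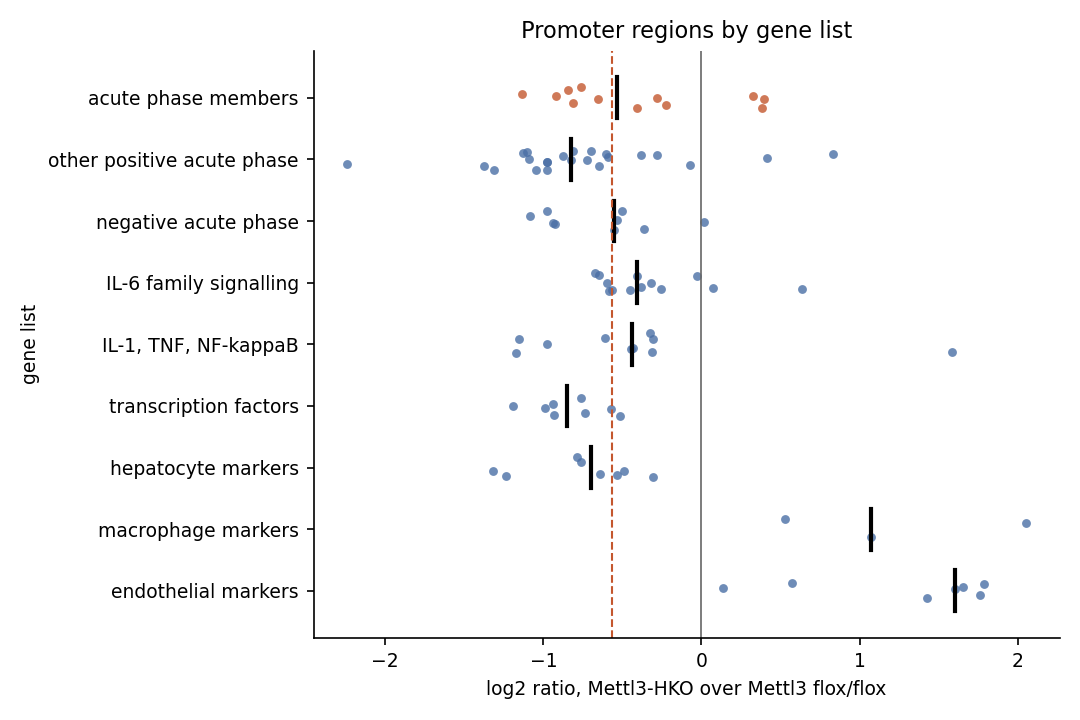
Log2 ratio (*Mettl3*-HKO against *Mettl3* flox/flox) of each promoter region (points, shifted vertically at random to separate them) in the acute phase members, the 5 related gene lists and 3 lists of cell type markers, with the median of each list (black bar). The dashed line is the median of all promoter regions (−0.56). The list medians run from −0.85 for the transcription factors to 1.60 for the endothelial markers, and the neutrophil list has no promoter region.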

How the data were processed

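ATAC-seq was analysed in 1 library from *Mettl3* flox/flox and 1 from *Mettl3*-HKO livers, with groups taken from the genotype labels. The authors trimmed adaptors with skewer, aligned reads with BWA to GRCm38 (submitters' processing notes), kept properly paired, non-mitochondrial reads above a mapping quality, and called peaks per library with MACS2 with duplicates kept. The method of counting on regions and any shift of read ends for Tn5 are not given in the sources used here. Per region, the authors deposited the raw count of each library, the RPM (count plus 1, scaled to the library total) and a fold enrichment, the ratio of read density in the region to that in the genome. They also deposited their own log2 ratio, which was not used.

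The table had 74821 rows, and repeated rows of a region were left out. Library totals were recovered from the RPM values. Log2 ratios were computed from counts with 1 read added, scaled to those totals, with 95% intervals (Clopper-Pearson) from the counts' share. Differences between regions have exact conditional intervals of the odds ratio, for pairs chosen after their values were seen. A single library per group allows no test across mice. The two-sided exact conditional binomial test, adjusted over all regions (Benjamini-Hochberg, threshold 0.05), compares the libraries, and retained duplicates make counts less independent than it assumes. The median promoter region had 370 counts in *Mettl3* flox/flox and 265 in *Mettl3*-HKO.

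The members, gene lists, markers and motifs were chosen with earlier results of these data known. Values are given for every promoter region of a member, for its other region with the most counts and those with the highest and lowest ratio, and for listed genes at least 2-fold changed or among the 2 strongest promoters of a list, while marker lists are given by counts and sums. Other regions and genes were named after their values were seen. Some listed genes are not reported here and were left out of their lists. Alternatives were 3 other scalings, 10 added reads, promoter windows of 500 and 2000 bp, a 1.5-fold threshold, the binomial call, the strongest promoter region per gene and the upper 50% of mean signal. Promoter sequences and gene positions are from RefSeq, GRCm38.p6. Alignments of promoter windows were global. The software was Python 3.11.15 with scipy 1.17.1, pandas 2.3.3, numpy 2.4.6 and matplotlib 3.10.9.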

Additional observations from a re-analysis of the deposited data

How the results depend on the processing

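No paired analysis was possible because each genotype had 1 pooled library, and for the same reason no replicate could be left out. The number of member promoter regions at least 2-fold lower in *Mettl3*-HKO, 1 by the reported settings, was 0 when the ratios were centred on all regions (5% of all promoter regions) or on the strongest 10% of promoter regions (1.99%), when counts were scaled to the reads on regions (3.15%), and with a promoter window of 500 bp (15.9%). It was 6 of 12 at a 1.5-fold threshold (47.8% of all promoter regions) and 8 by the binomial test (71.5%). The number at least 2-fold higher, 0 as reported, was 2 of 12 after centring on the strongest promoter regions (9.86%) and 1 by the binomial test (7.51%). The median of the promoter regions, −0.53 as reported, was −0.15, 0.11 and −0.019 under the 3 other scalings in that order (all promoter regions −0.19, 0.08 and −0.05). For the other regions the number at least 2-fold lower, 0 as reported, was 1 with the 500 bp window (18.8% of all regions outside it), 3 of 19 at 1.5-fold (36.5% of all other regions) and 7 by the binomial test (41%), and the number at least 2-fold higher, 3 as reported, was 1 with 10 added reads (10.2%) and 0 in the upper 50% of mean signal (4.95%). Their median, −0.12 as reported, was 0.25, 0.52 and 0.39 under the other scalings (all other regions 0.10, 0.37 and 0.24). The scalings differ by a constant, so they move every ratio alike. Of the 31 ratios 9 changed sign after centring on all regions, 11 under each of the other scalings and 0 with 10 added reads.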

Other observations

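Inside the authors' model of *Crp*, which runs far beyond the RefSeq gene, 2 further regions were closest to the start of an unnamed gene. One of them, at chr1:172785860-172786520, had 160 counts in *Mettl3* flox/flox and 276 in *Mettl3*-HKO, a log2 ratio of 0.65 (95% interval 0.36 to 0.94), and the other had 34 and 32 counts. Between *Saa4* and *Saa1*, 2 regions were closest to another unnamed gene, with 67 and 60 counts (log2 ratio −0.29) and 233 and 158 counts (−0.69). *Socs1*, which limits cytokine signalling, had 1 promoter region with 60 and 103 counts (0.63) and another with 415 and 447 (−0.03).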
